A study of Mus musculus with 24 samples.

Results

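Psilocybin was compared with its PBS vehicle in mice that were placed in light, as 6 psilocybin-light mice against 6 light mice, which are 12 of the 24 mice of the series. The mice were C57BL/6J males of 8 to 10 weeks, kept on a reversed light cycle and used in their dark phase. The psilocybin-light group received 5 mg/kg psilocybin and the light group PBS, both were then placed in light for 2.5 h, and mRNA of the visual cortex was sequenced with 1 library per mouse. The other 12 mice, 6 given PBS (dark group) and 6 given psilocybin (psilocybin-dark group), stayed in the dark. They share the fit, and so the estimate of the spread between mice, and serve to ask whether the drug effect differed with light. Mice are named by the library numbers 13 to 18 (light) and 19 to 24 (psilocybin-light). Light exposure follows the headings of the study's supplementary count table, and the sample labels give the opposite exposure with the same drug for all 24 libraries. The drug comparison is between the same mice under either source, but under the labels all 12 would be dark mice, and the sign of each difference between light and dark would turn.

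Psilocybin is converted in the body to psilocin, an agonist of serotonin receptors, among them the 5-HT2A receptor of cortical pyramidal neurons. Cortical neurons respond to light and to such agonists with immediate early genes such as Fos, Egr1 and Arc, and slower programmes follow in neurons and glia. One such programme is protein folding in the endoplasmic reticulum (ER), where chaperones fold secreted and membrane proteins, and where the sensors ATF6, IRE1 and PERK adjust chaperone transcription to the folding load.

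Totals ran from 15410035 to 17906994 counts in light mice and 14558979 to 17566718 in psilocybin-light mice. Markers of cortical glutamatergic neurons were present in every library, but markers of other regions were not even. Summed cerebellar markers (10 genes) reached 27011 normalized counts in light mouse 18 against 3271 to 3904 in the other 5 light mice and 2886 to 4132 in the psilocybin-light mice. A normalized count is a count scaled to the mean effective library of 16058300 counts. A further set of transcripts changed level between libraries 16 and 17, inside the light group, so light mice 17 and 18 lay with the psilocybin-light mice for these. In 110 of 14464 genes (0.761%) all of libraries 1 to 16 were above all of libraries 17 to 24, and in 5 they were all below. No label or method in the sources used here names a step in handling at that place, and its cause was not tested. Results that rest on these mice are given with and without them.

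Any split of the 12 mice holds some share of the variance between them. Over all genes the split by drug held 10.7%, which was not past the threshold (pseudo-F, exact permutation of 6 mice against 6, p = 0.26). Without psilocybin-light mouse 23 alone of the 12 mice the p fell under the threshold, to 0.0238. Gene by gene, 88 of 14464 genes tested (0.608%) differed at an adjusted p under 0.05 in edgeR's quasi-likelihood test, of which 80 (0.553%) were lower and 8 (0.0553%) higher after psilocybin. The changes were small. The median absolute log2 fold change was 0.31, the range was 0.14 to 0.91, and none reached 1. The 6 mice of one group did not overlap the 6 of the other in 56 of the 88, against 234 of all genes tested (1.62%). Which genes passed depended on single mice. The count was 33 without light mouse 13 and also without 14, 11 without 15, 24 without 16 and 155 without 17, and it was 9 without psilocybin-light mouse 19, 28 without 20, 41 without 21, 47 without 23 and 12 without 24. With only the 12 mice in the fit it was 58, of which 44 were among the 88. DESeq2 called 193 genes (1.33%), among them all 88. At an unadjusted p under 0.05 there were 873 lower genes (6.04%) and 529 higher ones (3.66%). The genes called lower had a median exon length of 8658 bases, against 6331 over all genes. The part of transcript length in the calls was not tested. In bulk tissue, a fall of a transcript and fewer cells that carry it cannot be told apart.

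**Figure D1:**
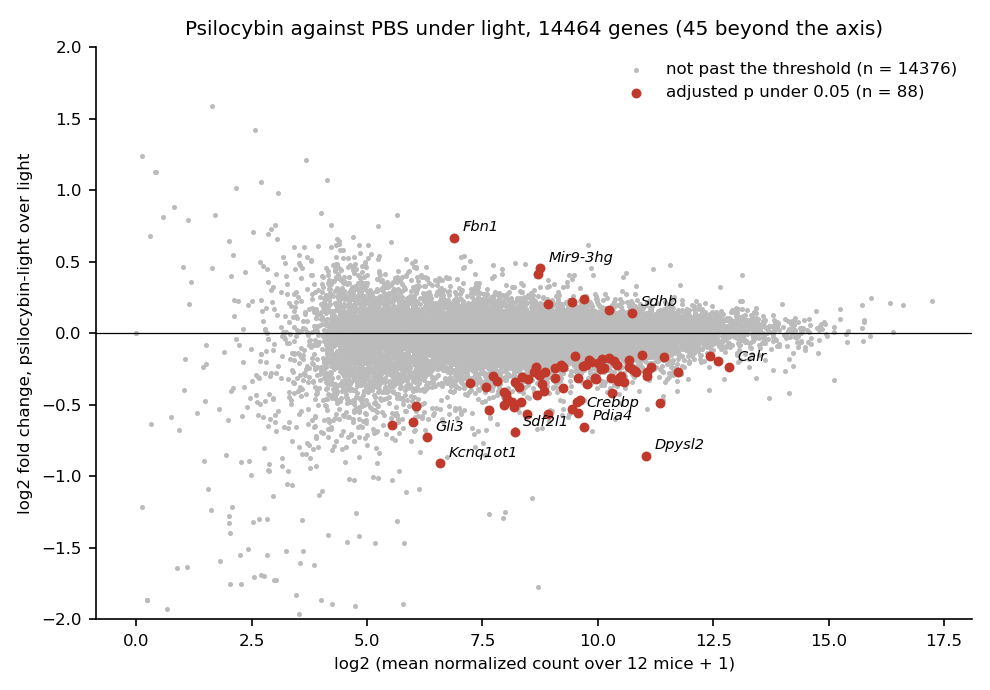
Each point is 1 of 14464 genes, with the log2 of the mean normalized count over the 12 mice plus 1 on the horizontal axis and the log2 fold change of psilocybin-light over light on the vertical axis. Red points are the 88 genes past the threshold, 80 below 0 and 8 above, and all of them lie within 1 of 0, while 45 genes that were not called lie beyond the axis.

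Listed ER chaperones were mostly lower after psilocybin. The list was chosen with earlier results of these data known, so its shares are a description and no independent test. Of 20 listed chaperones and regulators of ER folding, 7 were lower and 0 higher at the adjusted threshold, 15 were lower at an unadjusted p under 0.05 (background 6.04%), and 19 had a negative fold change. The list's median log2 fold change was -0.22, against -0.01 over all genes tested. DESeq2 called 9 lower and 0 higher. The count of 7 fell to 1 without light mouse 15, 3 without light mouse 16, 2 without psilocybin-light mouse 19, 3 without 20 and 2 without 24, although at least 12 members stayed lower at an unadjusted p under 0.05 without any 1 of the 12 mice.

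Pdia4, a disulfide isomerase of the ER (GRCm39 chromosome 6, 47770077 to 47790462), had the smallest p in the comparison. Its normalized count had a lowest value of 815, a median of 1042 and a highest value of 1162 in the light group, and 616, 631 and 708 in the psilocybin-light group. The groups did not overlap, and the log2 fold change was -0.66 ± 0.10 (SE, n = 6 and 6, edgeR adjusted p = 0.00328). It stayed past the threshold without any 1 of the 12 mice. Sdf2l1, a cofactor of ER chaperone complexes (chromosome 16, 16948002 to 16950252), ran from 262 over a median of 354 to 439 in light mice and from 187 over 223 to 262 after psilocybin. The lowest light mouse lay just above the highest psilocybin-light mouse, and the log2 fold change was -0.69 ± 0.12 (SE, edgeR adjusted p = 0.0114). Manf, a secreted ER stress-induced protein (chromosome 9, 106715511 to 106769727), ran from 808 over 892 to 1087 in light mice and from 609 over 650 to 724 after psilocybin. The groups again stood apart, with a log2 fold change of -0.46 ± 0.08 (SE, edgeR adjusted p = 0.0114).

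Creld2, a disulfide isomerase-like ER protein, ran from 331 to 419 in light mice and from 239 to 303 after psilocybin. Dnajc3, a co-chaperone that also restrains the kinase PERK, ran from 1245 to 1558 and from 1003 to 1260, with a small overlap. The lectin chaperones calreticulin (Calr) and calnexin (Canx), which hold glycoproteins until they are folded, were lower by less. Calr ran from 7475 to 8425 in light mice and from 6259 to 7083 after psilocybin, and Canx from 6128 to 7157 and from 5655 to 5954. The log2 fold changes were -0.48 for Creld2, -0.32 for Dnajc3, -0.24 for Calr and -0.19 for Canx, with adjusted p of 0.0203, 0.0188, 0.046 and 0.0499 in edgeR.

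Of the list's other members, 2 were close to the threshold. Hspa5 (BiP), the main HSP70 of the ER, ran from 6702 to 8693 in light mice and from 5330 to 6715 after psilocybin, so the groups just met, with a log2 fold change of -0.32 and an edgeR adjusted p of 0.0685. Xbp1, the transcription factor spliced by IRE1, had -0.27 with an adjusted p of 0.0524. Hsp90b1, the HSP90 of the ER, had -0.06 with a 95% interval that included 0 (adjusted p = 0.841). Atf4 and Ddit3, genes of the PERK branch, had log2 fold changes of 0.02 and -0.06, with edgeR adjusted p of 0.966 and 0.891. The lower chaperones were thus not accompanied by a called change in these transcripts, and the activity of the branch was not measured.

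**Figure D2:**
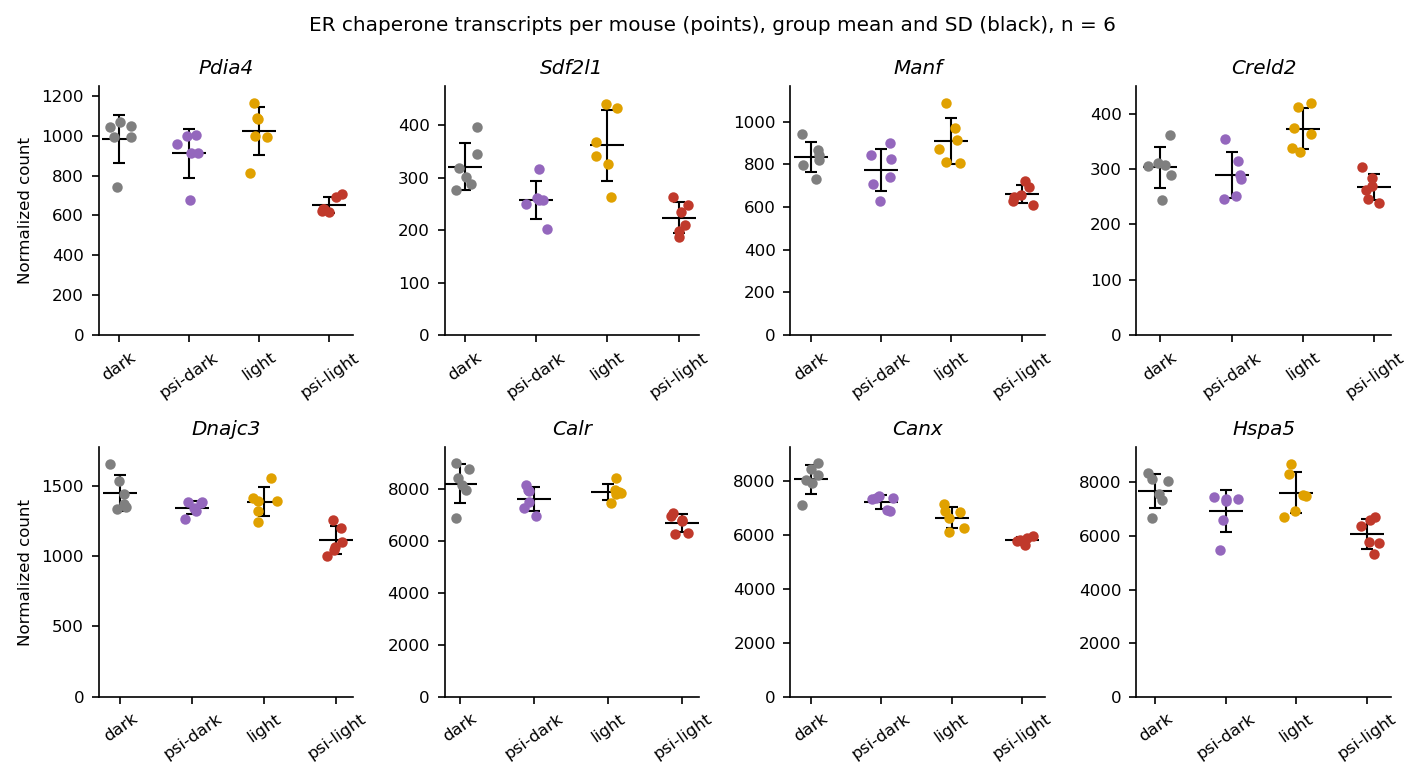
Normalized counts of 8 ER chaperone genes (vertical axes from 0) in each mouse of the 4 groups, with the group mean and SD in black (n = 6 per group). The psilocybin-light mice have the lowest group mean in all 8 panels, and Pdia4 shows no overlap with the light group, at 616 to 708 against 815 to 1162.

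Outside the list, 4 further called genes act in ER protein traffic or disposal, and all were lower. They were Syvn1, the ubiquitin ligase of ER-associated degradation (log2 fold change -0.19), Ubxn4, which recruits the segregase VCP to the ER (-0.18), Dnajc1, a membrane-bound J-protein of the ER (-0.32), and Tram1, a part of the translocation channel (-0.29). These 4 were grouped with the 7 after their values were seen, and no test was made of the group.

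Many ER chaperone promoters hold the ER stress response element, with CCAAT and CCACG on either side of a 9-base spacer, the site of NF-Y and ATF6. It was looked for on both strands of the RefSeq promoter windows (GRCm38.p6, 250 bases before to 50 after the start site), which covered 18 of the 20 list members. The element was found in 7 of these 18 and in 37 of 27025 genes with a window (0.137%). Of 68 called genes with a window, 5 held it, namely Calr, Canx, Creld2, Dnajc3 and Syvn1, all called lower. The other list members that held it were Hspa5, Pdia6 (log2 fold change -0.26, edgeR adjusted p = 0.234) and Hsp90b1, which held 2 copies and had -0.06 (adjusted p = 0.841). So carriers of the element were found among members that were called and members that were not. The stretches below show the 5 called genes, Hspa5 and both copies of Hsp90b1, 5′ to 3′ on the strand of the gene, with the fixed bases of the element in capitals. In Calr, Creld2 and the second Hsp90b1 stretch the element reads on the other strand, so it appears as CGTGG and ATTGG. The 2 called members with the largest fold changes, Sdf2l1 and Pdia4, had no match to these letters in their windows, which says nothing of the factor. A match is a description of sequence, and binding was not measured.
Calr (chr8:84847055-84847113, - strand): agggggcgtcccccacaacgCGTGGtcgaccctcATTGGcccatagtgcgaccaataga
Canx (chr11:50325780-50325838, - strand): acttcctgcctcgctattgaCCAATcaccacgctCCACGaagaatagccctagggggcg
Dnajc3 (chr14:118937807-118937865, + strand): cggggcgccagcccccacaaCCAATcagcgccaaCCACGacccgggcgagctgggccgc
Creld2 (chr15:88819500-88819558, + strand): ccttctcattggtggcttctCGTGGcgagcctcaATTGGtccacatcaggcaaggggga
Syvn1 (chr19:6046512-6046570, + strand): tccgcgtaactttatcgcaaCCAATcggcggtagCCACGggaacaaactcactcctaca
Hspa5 (chr2:34772005-34772063, + strand): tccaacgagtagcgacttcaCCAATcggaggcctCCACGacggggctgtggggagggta
Hsp90b1 (chr10:86705618-86705676, - strand): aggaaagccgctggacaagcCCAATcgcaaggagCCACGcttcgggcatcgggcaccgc
Hsp90b1 (chr10:86705513-86705571, - strand): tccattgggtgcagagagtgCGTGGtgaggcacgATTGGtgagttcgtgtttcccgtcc

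The ER result was as large without light mice 17 and 18 and smaller against them alone. Without mice 17 and 18, 8 list members were lower and the median was -0.25. With 17 and 18 as the only PBS mice, against all 6 psilocybin-light mice, no gene of the 14464 passed the adjusted threshold in edgeR (1067 at an unadjusted p under 0.05), but 8 of the 20 list members were lower at an unadjusted p under 0.05 (background 4.29%) and the median was -0.13. Pdia4 then had -0.54, Manf -0.51 and Sdf2l1 -0.62, close to their values over all 6 light mice, while Canx had -0.07.

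Among the called genes, 19 encode RNA-binding proteins or enzymes of RNA, of which 17 were lower, with a median log2 fold change of -0.27. They were grouped after their values were seen, no test was made of the group, and the share of lower genes is that of all calls. Acin1, a part of a splicing-associated complex on spliced mRNA, ran from 2315 over a median of 2353 to 2439 in light mice and from 1817 over 1962 to 2066 after psilocybin. The light mice were almost alike and the groups did not overlap, so a fall of 0.27 on the log2 scale had an SE of 0.04 (edgeR adjusted p = 0.00328). Safb, a nuclear matrix protein that binds RNA and DNA, ran from 1844 to 2018 and from 1506 to 1766 and had the same fold change and adjusted p. Tra2a and Srek1, which guide splice site choice, had -0.31 each, and Sf1, the branch-point binding protein, had -0.24. Ythdc1, the nuclear reader of methylated adenosine, had -0.19, Upf1, the helicase of nonsense-mediated decay, had -0.19, and Mettl16, an adenosine methyltransferase, had -0.32. In a list of 37 splicing regulators, chosen with earlier results of these data known, 2 were called lower (background 0.553%) and 0 higher. These 2 were Tra2a and Elavl1, and Elavl1 had only -0.09 against mice 17 and 18 alone. At an unadjusted p under 0.05, 17 were lower (background 6.04%). A negative sign was seen in 31, against 7548 of the 14464 genes tested, and the median was -0.11.

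The other 2 members of the group rose. Xrn2, the nuclear exoribonuclease that acts in transcription termination, ran from 615 to 690 in light mice and from 720 to 790 after psilocybin, and Pspc1, a paraspeckle protein, from 736 to 788 and from 834 to 1004. Neither overlapped between the groups, with log2 fold changes of 0.22 and 0.24 (edgeR adjusted p = 0.0244 and 0.0431).

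A group of 10 called genes of chromatin and transcription, also formed after the values were seen and not tested, was all lower, as were most calls, with a median of -0.37, and several of them followed the break between libraries 16 and 17. Crebbp, the acetyltransferase that serves as a coactivator of CREB (chromosome 16, 3899192 to 4031861), ran from 984 to 1160 in light mice 13 to 16, stood at 609 and 657 in light mice 17 and 18, and ran from 546 to 649 in the psilocybin-light mice. Over all 6 light mice its log2 fold change was -0.56 ± 0.11 (SE, edgeR adjusted p = 0.0266). Against mice 17 and 18 alone it was -0.02, with a 95% interval from -0.18 to 0.14, and without them it was -0.76. Tbl1xr1, a part of the NCoR corepressor, had the same pattern, with -0.53 over all light mice and -0.04 against mice 17 and 18 alone.

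Dpysl2, a tubulin-binding protein of growing axons (chromosome 14, 67040313 to 67148522), showed the break most plainly. It ran from 3007 to 3579 in light mice 13 to 16, was 1633 and 1685 in mice 17 and 18, and ran from 1373 to 1679 in the psilocybin-light mice, for a log2 fold change of -0.86 ± 0.14 (SE, edgeR adjusted p = 0.0102) that became -0.13 (95% interval -0.31 to 0.05) against mice 17 and 18 alone. In the RNA-binding group Elavl1 (HuR), which stabilises mRNA, went from -0.48 to -0.09, and Ddx6 and Ppig from -0.30 each to -0.05 and -0.02.

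The break was more frequent among the called genes than among all genes. In 15 of the 88, all of libraries 1 to 16 were above all of libraries 17 to 24, against 0.761% of all genes tested. In such genes most light mice lie above every psilocybin-light mouse, which itself favours a call. A higher share thus follows in part from the calling. By another measure, light mice 17 and 18 were both nearer the psilocybin-light mean in 15 of the 88 called genes, all among the 80 lower, against 31.7% of all genes tested, a share that the calling itself lowers because called genes need separated groups. For these 15 the median log2 fold change was -0.38 over all light mice and -0.05 with mice 17 and 18 as the only PBS mice, and 0 of 15 were then at an unadjusted p under 0.05. For the other 65 lower genes the medians were -0.31 and -0.26, and 53 of 65 were at an unadjusted p under 0.05. Mice 17 and 18 both made this split and enter these values, so they describe the 2 sets and are no test. All 80 lower and all 8 higher genes kept their sign. Without mice 17 and 18 the comparison called 226 genes (1.56%), 207 lower and 19 higher, of which 71 were among the 88.

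**Figure D3:**
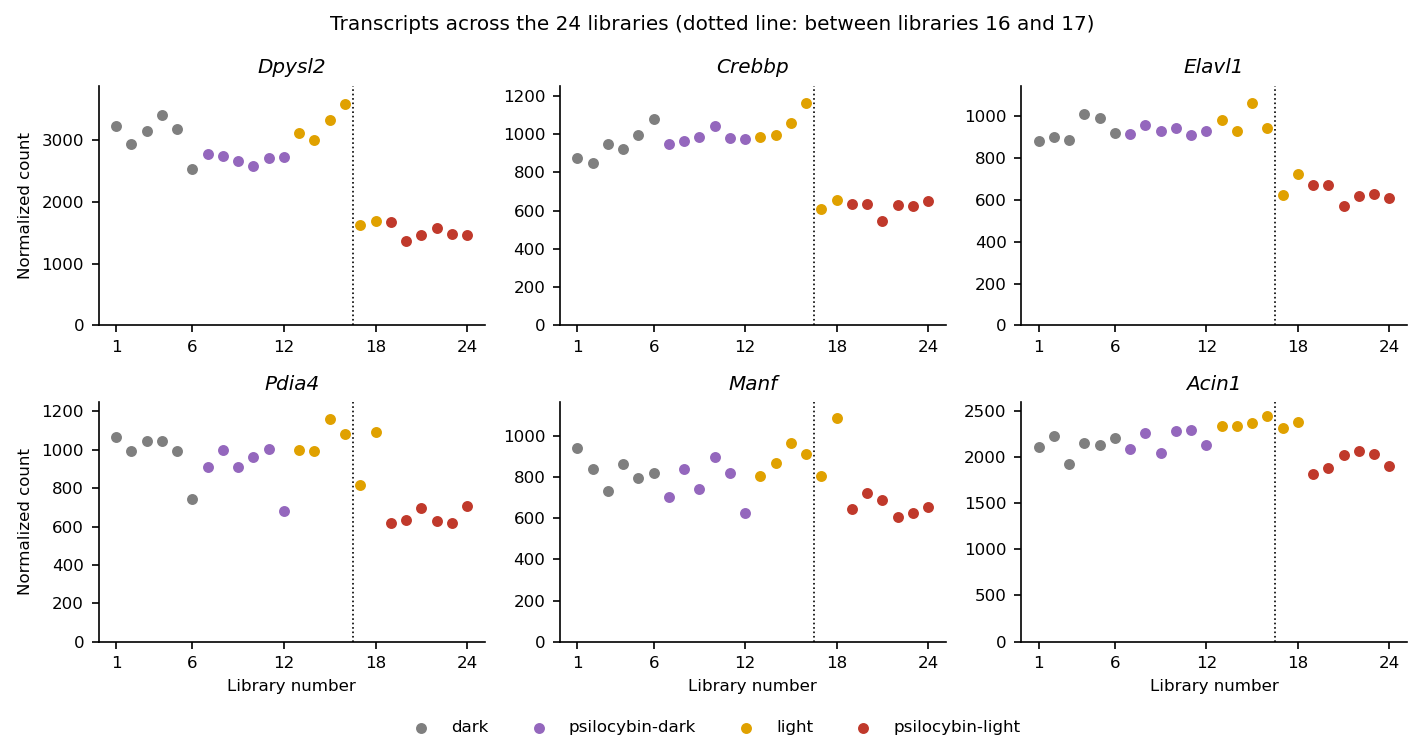
Normalized counts of 6 called genes (vertical axes from 0) against library number, coloured by group, with a dotted line between libraries 16 and 17. Dpysl2, Crebbp and Elavl1 drop at the line, inside the light group, whereas for Pdia4, Manf and Acin1 light mice 17 and 18 lie above every psilocybin-light mouse.

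Of the other chromatin genes, Top1, which relaxes supercoiled DNA ahead of polymerases, ran from 1781 to 2162 in light mice and from 1582 to 1699 after psilocybin without overlap, with a log2 fold change of -0.27 ± 0.05 (SE, edgeR adjusted p = 0.0114). Against mice 17 and 18 alone it was -0.12. Hdac5, a deacetylase that shuttles between nucleus and cytoplasm with neuronal activity, ran from 3338 to 4076 and from 2916 to 3323, with -0.27 (adjusted p = 0.0363) over all light mice and -0.20 against mice 17 and 18. Banp, a factor that binds unmethylated CpG sites, ran from 499 over 589 to 652 and from 359 over 367 to 453, and had -0.57 and -0.48. A list of 33 acetylation genes and coregulators was also chosen with earlier results of these data known. In it 3 were called lower (background 0.553%), Crebbp and Hdac5 among them, and 0 higher. At an unadjusted p under 0.05, 8 were lower (background 6.04%) and 2 higher (background 3.66%). A positive sign was seen in 15, and the median of -0.02 was near that of all genes. Igf1r, the receptor of insulin-like growth factor 1, had -0.41 without passing the threshold (edgeR adjusted p = 0.0704) and -0.03 against mice 17 and 18.

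A pair of astrocyte markers, Sox9 and Gja1, was called lower. Sox9, the transcription factor of the astrocyte lineage, ran from 297 over 430 to 532 in light mice and from 258 over 279 to 317 after psilocybin. Gja1, the astrocyte gap junction protein connexin 43, ran from 2644 over 3089 to 3367 and from 1921 over 2087 to 2807. Both pairs overlapped by few mice, with log2 fold changes of -0.57 ± 0.10 and -0.49 ± 0.09 (SE, edgeR adjusted p = 0.0118 and 0.0133). Sox21 and Gli3, factors of neural progenitors and glia, had -0.54 and -0.73. Of 12 astrocyte markers, 2 were called lower (background 0.553%), namely Sox9 and Gja1, and 3 were lower at an unadjusted p under 0.05 (background 6.04%). All 12 had a negative sign, against 7548 of the 14464 genes tested, and the median was -0.16. The summed marker level ran from 71798 to 86532 in light mice and from 63573 to 73037 after psilocybin, and no marker was at 0 in all 12 mice. Without mice 17 and 18 the list median was -0.03, and against these mice alone it was -0.30. The ER median moved the other way with these mice, from -0.22 to -0.25 without them and to -0.13 against them alone. The part of the lower astrocyte level in the results above was not tested. Markers of oligodendrocytes (15), microglia (12), glutamatergic (20) and GABAergic neurons (20) had 0 called genes in edgeR and in DESeq2, 0, 1, 1 and 1 members at an unadjusted p under 0.05, and medians of -0.01, -0.05, 0.03 and -0.03. Vascular markers had 11 of 13 with a negative sign, 1 at an unadjusted p under 0.05, 0 called by either tool and a median of -0.22, which was -0.14 without mice 17 and 18 and -0.31 against them alone. Meningeal markers (9) had 0 called by either tool, 0 at an unadjusted p under 0.05 and a median of -0.24, which turned to 0.25 without mice 17 and 18.

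The 8 higher genes were not placed in a group of their own, and 2 of them, Xrn2 and Pspc1, are given above with the RNA-binding group. Mir9-3hg, the host transcript of a miR-9 gene (chromosome 7, 79146444 to 79184154), ran from 317 over 363 to 398 in light mice and from 459 over 498 to 534 after psilocybin. The groups stood apart, with a log2 fold change of 0.46 ± 0.10 (SE, edgeR adjusted p = 0.0363), and it was also higher after psilocybin in the dark, by 0.71. Fbn1, the extracellular fibril protein fibrillin, had the largest rise at 0.67 ± 0.15 (SE, adjusted p = 0.0368), from 79.3 to 133 in light mice and 115 to 177 after psilocybin, where light mouse 18, with the cerebellar markers, was the only light mouse above 86.4. Sdhb, the iron-sulfur subunit of succinate dehydrogenase, ran from 1569 to 1685 and from 1761 to 1850, with 0.14 ± 0.03 (SE, adjusted p = 0.0328). Armcx5 had 0.41, Xylt2, an enzyme of proteoglycan synthesis, 0.20, and Pmpca, a subunit of the mitochondrial processing peptidase, 0.16. Hmgb3 (0.33), Mthfd1l (0.41), Nop14 (0.23) and Aptx (0.18) had the next smallest p among higher genes and were not past the threshold, with adjusted p from 0.0525 to 0.0668.

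The remaining largest falls were in genes of unlike function. Kcnq1ot1, the antisense transcript of the imprinted Kcnq1 locus, ran from 72.3 to 173 in light mice and from 47.9 to 81.1 after psilocybin, with -0.91 ± 0.21 (SE, edgeR adjusted p = 0.0499), and had -0.16 against mice 17 and 18 alone. It overlaps Kcnq1 and the strand setting of the counting is not known. Adcy4, an adenylate cyclase of vessel cells, ran from 62.6 to 86.4 and from 39.4 to 56.9, with -0.62, and the unnamed transcript Gm43668 had -0.65. Tpp1, a lysosomal peptidase, Plekhm1, which joins lysosomes to autophagosomes, Hps4, Slc38a9, the lysosomal arginine sensor, and Soat1, which esterifies cholesterol, were also called lower. These 5 were grouped after their values were seen, and no test was made of the group. Light and psilocybin-light mice did not overlap for any of them, as for 56 of the 88 called genes and 1.62% of all genes tested. Their log2 fold changes ran from -0.42 to -0.21 and, against mice 17 and 18 alone, had a median of -0.28. Chordc1, an HSP90 co-chaperone, had -0.34.

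Genes of neuronal activity were not called. Of 25 early transcription factors, 0 passed the threshold in edgeR or DESeq2, 1 was lower at an unadjusted p under 0.05 (Nr4a2), 14 had a positive sign, and the median was 0.14. Arc, an effector of synaptic plasticity, ran from 4915 over a median of 7071 to 13567 in light mice and from 8352 over 9517 to 14940 after psilocybin, so the groups overlapped widely, with a log2 fold change of 0.41 (95% interval -0.19 to 1.00). Egr1 had 0.17 (-0.29 to 0.63), Npas4 0.29 (-0.27 to 0.84) and Fosb -0.15 (-0.70 to 0.41). These intervals are wide enough to hold a change of either sign. Of 30 effectors 0 were called in either tool, with 1 at an unadjusted p under 0.05 and a median of 0.08. The same held for 15 genes of MAPK feedback, 12 serotonin receptors, 24 genes of Gq and arrestin signalling and 27 glucocorticoid-responsive genes, with 0 called by edgeR or DESeq2 and 2, 0, 1 and 3 at an unadjusted p under 0.05. Htr2a, the receptor through which psilocin acts on pyramidal neurons, had 0.32 (95% interval -0.11 to 0.75), and Fkbp5, a glucocorticoid target, had 0.42 (0.12 to 0.72, adjusted p = 0.246).

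**Figure D4:**
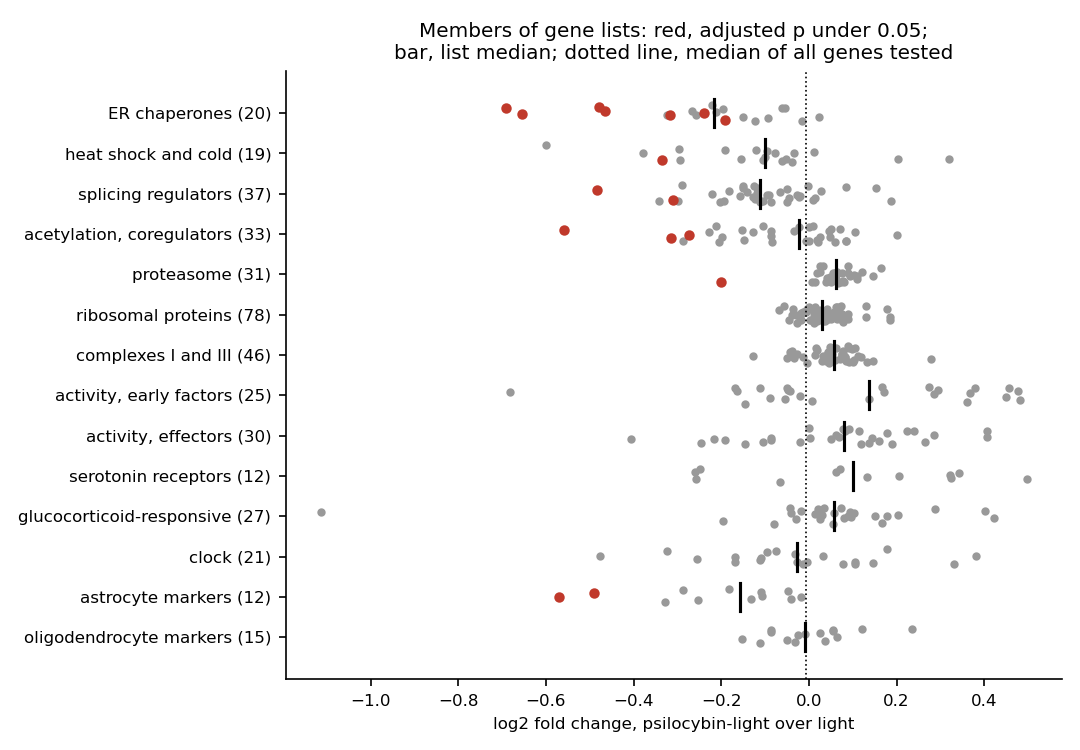
Log2 fold changes of psilocybin-light over light for the tested members of 14 gene lists (number of members in brackets), with members past the threshold in red, list medians as bars and the median of all genes as a dotted line. The ER chaperones have 7 red members and a median of -0.22, and the lists of activity genes and serotonin receptors have none.

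The drug effect was then set against the effect of the same dose in the dark, in mice that share no animals with these. In the dark, 3575 of the 14464 genes (24.7%) differed between psilocybin and PBS mice. These groups also differed in summed markers of tissue content, as given below. Of the 88 genes called under light, 68 had the same sign in the dark and 19 were called there, 18 of them in the same direction. The 80 lower genes had a median log2 fold change of -0.32 under light and -0.07 in the dark, and the 8 higher ones 0.23 and 0.08. Since the 88 were chosen by their change under light, the larger values there follow in part from that choice. Across all genes tested the 2 effects had a Pearson correlation of 0.22 and a Spearman correlation of 0.19, given as a description over genes that are not independent.

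The difference between the 2 effects was tested directly and passed the threshold in 1266 genes (8.75%), 33 of them among the 88. It was more negative under light in 31 of the lower genes and more positive in 2 of the higher ones (Xrn2 and Sdhb). Pdia4 was one of them. It ran from 745 to 1066 in the dark group and from 679 to 1003 in the psilocybin-dark group, where its log2 fold change was -0.11, so the difference was -0.55 (edgeR adjusted p = 0.0145). It was the single ER list member to pass this test, and the ER median in the dark was -0.08. The RNA-binding group held 11 of the 33, among them Acin1, with 0.04 in the dark and a difference of -0.31 (adjusted p = 0.00347), and Safb, with -0.01 and -0.26 (adjusted p = 0.00848). For Ubxn4, Mettl16 and Gja1, which were lower in both arms, the differences were 0.01, 0.06 and -0.12 and did not pass.

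For activity genes the larger log2 fold changes were in the dark arm, where the 2 groups also differed in summed tissue markers, as given below. Arc had 2.44 in the dark and a difference of -2.03 (edgeR adjusted p = 0.00554), Egr1 1.64 and -1.48 (adjusted p = 0.00756), Npas4 1.70 and -1.42 (adjusted p = 0.0282) and Fosb 1.11 and -1.25 (adjusted p = 0.0429). In the fixed list of 10 genes that the study names, all 10 passed this test. The study took Npas4, Fosb, Egr1 and Arc from earlier work on light in the visual cortex. It chose Top1, Crebbp, Hdac5, Igf1r, Sdhb and Psmb1 on these same samples, so their passing is no independent result. Cerebellar markers were also high in dark mice 1 and 6 and psilocybin-dark mouse 12, and the count of 1266 was 3817 when these and light mouse 18 were left out. With light mice 17 and 18 as the only light mice it was 0. Summed hippocampal markers ran from 10639 to 12783 normalized counts in dark mice and from 5914 to 9639 in psilocybin-dark mice. Summed glutamatergic markers ran from 45890 to 120468 and from 94060 to 148805. In the dark, 11 of these 20 glutamatergic markers were called higher after psilocybin, with a list median of 0.87. The part of tissue content in the dark effects and in the differences was not tested.

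**Figure D5:**
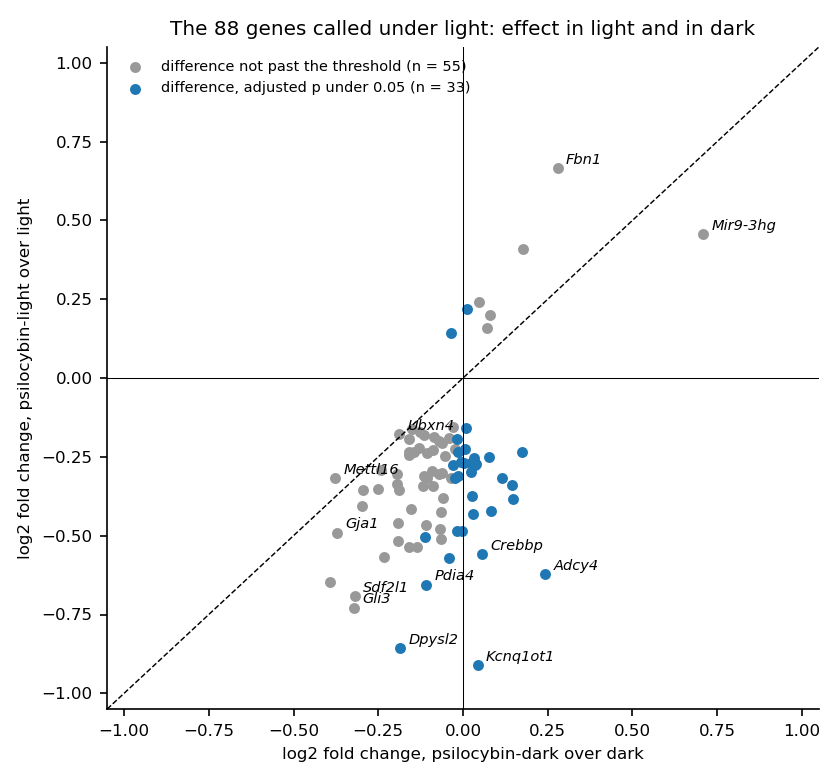
Log2 fold change of psilocybin over PBS under light (vertical axis) against that in the dark (horizontal axis) for the 88 genes called under light, with the 33 that passed the test of the difference in blue and a dashed line where both effects are equal. Most lower genes lie below the line with values near 0 in the dark, while Ubxn4, Mettl16 and Gja1 lie near it.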

How the data were processed

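The authors enriched poly-A RNA, trimmed reads with cutadapt, mapped them with STAR to GRCm39 (the submitters' processing notes name mm10) and counted reads per gene by htseq-count. Deposited were raw counts of the authors for 55414 genes in 24 libraries, 1 per mouse. The annotation release and strand setting are not given in the sources used here. Groups follow the headings of the supplementary count table, whose counts equalled the deposited counts for 1457 of 1457 genes compared. Its columns of the authors' fold changes and p-values were not used.

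Counts were fitted in R 4.3.3 with edgeR 4.0.16 (quasi-likelihood, TMM, 1 term per group, all 24 libraries, genes reaching 30 counts in some library), two-sided, with Benjamini-Hochberg adjustment over 14464 genes and a threshold of 0.05. The common biological coefficient of variation was 0.182. Scripts were tested on simulated data. No 2 libraries of a group agreed within sampling noise. The pseudo-F on log2 CPM used a prior count of 2, and each mouse was treated as 1 replicate. DESeq2 1.42.0, other normalizations and filters, 1 surrogate variable (sva 3.50.0), the 12 libraries alone, other thresholds and each of the 12 mice left out were alternatives, and leaving out sets of mice was chosen after seeing the data.

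The genes named are the 12 called genes with the largest log2 fold change in each direction, or fewer (mean normalized count at least 10), filled up by smallest p, the genes the study names, and list members. Other called genes were named after their values were seen. The comparison, members and lists were chosen with earlier results of these data known. Gene positions and names are from GENCODE vM39 (GRCm39), and promoter sequences from RefSeq (GRCm38.p6), which were not used for positions of genes.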

Additional observations from a re-analysis of the deposited data

Results flagged for a closer look

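A single mouse stood far from the others of its group, by Dixon's ratio of gap to range at its 95% limit, in 16 of 126 groups of 6 mice screened, where chance gives about 1 in 20. Among named genes these were Crebbp in psilocybin-light mouse 21 (546 normalized counts against 621 to 649, ratio 0.728), Fbn1 in light mouse 18 (133 against 79.3 to 86.4, ratio 0.867), Xrn2 in light mouse 17 (690 against 615 to 641, ratio 0.659) and in psilocybin-light mouse 24 (790 against 720 to 744, ratio 0.659), Hmgb3 in light mouse 14 (167 against 138 to 145, ratio 0.757), Arc in psilocybin-light mouse 21 (14940 against 8352 to 10187, ratio 0.722) and Atf4 in psilocybin-light mouse 23 (2134 against 2323 to 2380, ratio 0.767).

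Light mouse 18 stood apart in 5 sums of marker genes, namely cerebellar (27011 against 3271 to 3904 normalized counts, ratio 0.973), meningeal (5164 against 1428 to 1968, ratio 0.855), thalamic (5937 against 3254 to 3952, ratio 0.74), hippocampal (8861 against 6151 to 7016, ratio 0.681) and glutamatergic markers, where it was low (107446 against 136357 to 150259, ratio 0.675). Choroid plexus markers were high in light mouse 14 (2271 against 112 to 265, ratio 0.929) and in psilocybin-light mouse 19 (973 against 123 to 199, ratio 0.911), which also had the most blood transcripts (6302 against 624 to 1867, ratio 0.781). Thalamic markers were high in psilocybin-light mouse 23 (5331 against 2690 to 3042, ratio 0.867).

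The psilocybin effect differed between light and dark, by edgeR's test of the difference, in 18 of 50 named genes and ER list members, against 8.75% of all genes tested. Many of the 50 were named for their change under light, which enters this difference, so a higher share follows in part from that choice. The differences, as light minus dark on the log2 scale, were -0.95 for Kcnq1ot1, -0.67 for Dpysl2, -0.55 for Pdia4, -0.86 for Adcy4, -0.53 for Sox9, -0.61 for Crebbp, 0.21 for Xrn2, 0.18 for Sdhb, 0.55 for Mthfd1l and 0.33 for Nop14. For genes the study names they were -1.42 for Npas4, -1.25 for Fosb, -1.48 for Egr1, -2.03 for Arc, -0.27 for Top1, -0.31 for Hdac5, -0.59 for Igf1r and 0.21 for Psmb1.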

How the results depend on the processing

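No paired analysis was possible because each library has its own number and the groups share none. The comparison of psilocybin-light with light mice called 88 genes, 193 with DESeq2, 55 with filterByExpr, 22 with no filter, 249 with 1 surrogate variable and 58 with only the 12 libraries in the fit. It called 6 at an adjusted p under 0.01, 176 under 0.1 and 0 when the log2 fold change also had to reach 1 in size. Leaving out 1 mouse gave 9 to 155. Leaving out light mice 17 and 18 gave 226, light mice 13 to 16 gave 0 and mice 1, 6, 12 and 18 gave 326. The share of lower genes among calls was 90.9% and was 78.8% with DESeq2, 77.6% with the 12 libraries alone, and 100% with no filter.

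The ER chaperone list's 7 lower genes became 4 with no filter, 1 at an adjusted p under 0.01, 0 with that size required and 0 without light mice 13 to 16, and 1 to 9 when 1 mouse was left out. The other alternatives gave 5 to 10.

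The difference between light and dark called 1266 genes, 759 with no filter, 2633 with 1 surrogate variable, 320 at an adjusted p under 0.01, 2178 under 0.1 and 330 with a difference of 1 or more in size. It called 863 to 1457 with 1 mouse left out, 0 without light mice 13 to 16 and 3817 without mice 1, 6, 12 and 18. The share of variance between the groups was 9.94% to 15.2% with 1 mouse left out, 7.99% in the 500 most variable genes (exact p = 0.511), 14.4% without light mice 17 and 18 (p = 0.0905) and 25.9% without light mice 13 to 16 (p = 0.0714). A random split holds a larger share when fewer mice are left, so these shares are not on one scale. Of 672 values of single named genes under alternatives, 454 kept direction and side of the threshold, 194 lost it, 24 gained it and 0 turned. Except for smaller sets of genes or mice, by construction, the cause of these changes was not tested. Genes that did not reach 30 counts in any library were not tested.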

Other observations

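A few further lists moved by small amounts and mostly without calls. Of 31 proteasome genes, 30 had a positive log2 fold change after psilocybin, 8 were higher at an unadjusted p under 0.05 (background 3.66%), and the median was 0.06. The only called member was lower, namely Psmd11, a subunit of the regulatory particle, at -0.20. Psmb1, a subunit of the catalytic core, ran from 1445 to 1637 normalized counts in light mice and had 0.17 (edgeR adjusted p = 0.0912). Over all genes tested 6914 of 14464 had a positive sign. Of 78 ribosomal protein genes 63 had a positive sign and 0 were called by edgeR or DESeq2. At an unadjusted p under 0.05, 5 were higher (background 3.66%), and the median was 0.03. With light mice 17 and 18 as the only PBS mice that median was 0.003, and 36 of the 78 had a negative sign. Without mice 17 and 18 it was 0.06. Of 46 genes of mitochondrial complexes I and III, 38 had a positive sign, 0 were called by either tool, 5 were at an unadjusted p under 0.05, and the median was 0.06. Against mice 17 and 18 alone the median of complexes I and III was 0.03 and that of the proteasome genes 0.08.

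Among 10 nuclear long non-coding RNAs the median was -0.30, with Kcnq1ot1 called lower and 4 lower at an unadjusted p under 0.05, Malat1 at -0.41 and Meg3 at -0.42 among them. Of 21 clock genes 0 were called by edgeR and 1 by DESeq2, with 4 at an unadjusted p under 0.05. Bmal1, the activator of the clock, ran from 726 to 882 in light mice and from 636 to 725 after psilocybin, with -0.26 (edgeR adjusted p = 0.0779), against 0.43 in the dark, and the difference passed the test (adjusted p = 0.00088). Of 20 genes of cholesterol synthesis 0 were called by either tool, with 4 at an unadjusted p under 0.05 and a median of -0.03.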
